A study of Mus musculus with 7 samples.

Results

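Heat shock proteins and chaperones are the genes whose products fold new proteins, refold damaged ones and hand those beyond repair to degradation, and the retina libraries held 81 of them among 54532 genes. They were taken by gene name, as the protein-coding genes of the HSP70 family with its HSP110 relative Hsph1 (14 genes), HSP90 (3), the small heat shock proteins (8), the J-domain co-chaperones or DNAJ family (45), the cytosolic chaperonin CCT (9) and the mitochondrial chaperonin pair Hspd1 and Hspe1 (2). Mouse retinas gave 4 libraries from animals that received angiotensin II (Ang II), a peptide hormone that raises blood pressure, and 3 from animals that received saline, both groups sampled at day 28. The series text gives all mice as ApoE-/-, a strain without apolipoprotein E that is used as a model of atherosclerosis, whereas the sample labels give the genotype of both groups as WT. Counts of Apoe were 253 to 406 in Ang II libraries and 150 to 304 in saline libraries, which does not decide between these labels. Age, sex, mouse strain, the Ang II dose and the number of animals behind a library are not given in the sources used here, so p-values measure the spread between these libraries, which may be technical.

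HSP70 proteins bind short unfolded stretches and release them in a cycle driven by ATP. J-domain proteins bring the substrates and start that cycle, while HSP110 proteins and other exchange factors reset it. HSP90 acts later on nearly folded clients such as kinases and steroid receptors. CCT is a closed barrel for actin, tubulin and, in photoreceptors, the beta subunits of transducin, and small heat shock proteins hold unfolded proteins without ATP. Under heat or oxidation the factor Hsf1 raises the inducible members through heat shock elements in their promoters, and stress of the endoplasmic reticulum (ER) raises the ER members through ER stress elements. Rods renew large amounts of membrane protein each day.

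Promoter sequence is shown first for members that hold one of those elements, since the levels given further on can be read against it. RefSeq windows on GRCm38.p6, from 250 bases before to 50 after a start site, matched 66 of the 81 genes by symbol. The heat shock element was searched on both strands as GAA, any 2 bases, TTC, any 2 bases and GAA, and occurred in 4 of the 66 (6.06%), against 0.662% of 27025 genes with a window. The 4 were Hspd1, Hspe1, Hsph1 and Dnajb6. The ER stress element, searched on both strands as CCAAT, any 9 bases and CCACG, occurred in 3 of the 66 (4.55%), against 0.137% of all genes, namely Hspa5, Hsp90b1 and Dnajc3. These letters were not found in the windows of Hspa1a, Hspa1b, Hspb1 and Dnajb1, which says nothing beyond those windows and this pattern. Capitals mark the element in each window printed here, read 5′ to 3′ on the strand of the gene.
Hspe1, chr1:55087898-55088197, plus strand: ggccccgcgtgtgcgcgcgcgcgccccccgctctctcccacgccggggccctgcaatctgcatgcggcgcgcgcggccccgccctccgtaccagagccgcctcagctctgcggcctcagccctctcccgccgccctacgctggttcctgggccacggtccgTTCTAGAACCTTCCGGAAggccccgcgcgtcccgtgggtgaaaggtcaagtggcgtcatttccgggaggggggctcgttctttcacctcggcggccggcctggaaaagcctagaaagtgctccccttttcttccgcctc
Dnajb6, chr5:29735648-29735947, plus strand: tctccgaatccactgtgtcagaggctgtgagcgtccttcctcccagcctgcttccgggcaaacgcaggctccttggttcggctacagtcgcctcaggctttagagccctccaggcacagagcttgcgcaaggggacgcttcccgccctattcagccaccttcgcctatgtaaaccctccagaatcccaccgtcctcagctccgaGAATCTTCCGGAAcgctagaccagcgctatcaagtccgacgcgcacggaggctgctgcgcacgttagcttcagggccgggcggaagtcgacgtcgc
Hspa5, chr2:34771840-34772139, plus strand: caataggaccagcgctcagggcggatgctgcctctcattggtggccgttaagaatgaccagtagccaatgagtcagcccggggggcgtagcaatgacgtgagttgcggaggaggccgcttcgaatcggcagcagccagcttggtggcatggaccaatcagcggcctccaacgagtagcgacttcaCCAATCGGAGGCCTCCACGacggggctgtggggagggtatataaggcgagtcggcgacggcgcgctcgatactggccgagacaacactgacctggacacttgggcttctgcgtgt
Hsp90b1, chr10:86705395-86705694, minus strand: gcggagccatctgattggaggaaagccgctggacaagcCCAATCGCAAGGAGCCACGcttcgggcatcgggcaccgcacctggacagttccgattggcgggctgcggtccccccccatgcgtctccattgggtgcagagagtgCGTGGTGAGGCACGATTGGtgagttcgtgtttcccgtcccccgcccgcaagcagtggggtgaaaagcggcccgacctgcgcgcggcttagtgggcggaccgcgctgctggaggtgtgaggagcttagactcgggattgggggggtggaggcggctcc
Dnajc3, chr14:118937682-118937981, plus strand: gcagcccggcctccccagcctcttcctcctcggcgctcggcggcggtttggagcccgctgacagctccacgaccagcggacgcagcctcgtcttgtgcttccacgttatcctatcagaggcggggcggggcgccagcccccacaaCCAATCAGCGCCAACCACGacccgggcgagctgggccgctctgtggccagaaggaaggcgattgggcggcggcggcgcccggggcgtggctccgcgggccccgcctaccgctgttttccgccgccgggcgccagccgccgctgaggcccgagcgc
In the Hspe1 window 2 overlapping matches form the capitals, and they begin 89 and 84 bases before the start site. Hspd1 is read away from the same stretch on the other strand, and its window of 300 bases shares 285 with that of Hspe1. A match is a description of the letters and not a site shown to be bound.

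The 7 libraries held 14655431 to 17563493 counts each. Rod markers were abundant in all of them, with summed levels of 50092 to 61990 CPM (counts scaled to a common library size, with TMM factors) in Ang II libraries and 63024 to 67657 CPM in saline libraries. The rod sums did not overlap between the groups. All 8 rod markers were lower in Ang II by the edgeR fit, 7 of them at an unadjusted p under 0.05, against 4.62% of all tested genes. At an adjusted p of 0.05 edgeR called 0 of the 8 and limma-voom 2. All 6 cone markers and all 6 bipolar markers were lower in Ang II as well. Markers of neighbouring tissue differed between libraries. Pigment epithelium markers summed to 1581 to 2327 CPM in Ang II and 601 to 1471 CPM in saline, without overlap. Lens markers reached 3212 CPM in Ang II replicate 2 and lay between 1.63 and 635 CPM in the other 6 libraries. Skeletal muscle markers reached 390 CPM in Ang II replicate 3, where reactive glia genes were also highest (164 CPM), and at 3.97 to 23.5 CPM elsewhere. The part of these retinal cell types and tissues in the chaperone values that follow was not tested. A value given without a library leaves out all of that library and not its neighbouring tissue alone. In whole tissue, fewer cells of a type and less RNA per cell cannot be told apart.

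Chaperone genes were highly expressed. Of the 81, 71 had enough counts to be tested, and their median level was 15.8 CPM per kilobase of gene length, against 5.95 CPM per kilobase for 14253 tested protein-coding genes. Among those protein-coding genes, 57 of the 71 lay in the upper 50% by level, 19 in the top 10% and 3 in the top 1%. By family, the median level per kilobase was 178 CPM for HSP90, 31.8 for Hspd1 and Hspe1, 26.1 for CCT, 14.2 for HSP70, 11.3 for DNAJ and 4.21 for the small heat shock proteins. Members of one family differed widely, in HSP70 between 2.03 CPM per kilobase for Hspa12b and 178 for Hspa8, and in CCT between 0.335 for Cct6b and 59.7 for Cct5. The HSP70 range leaves out Hspa1l, which was lower at 0.791 but shares 71.9% of its exonic bases with an antisense gene.

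**Figure D1:**
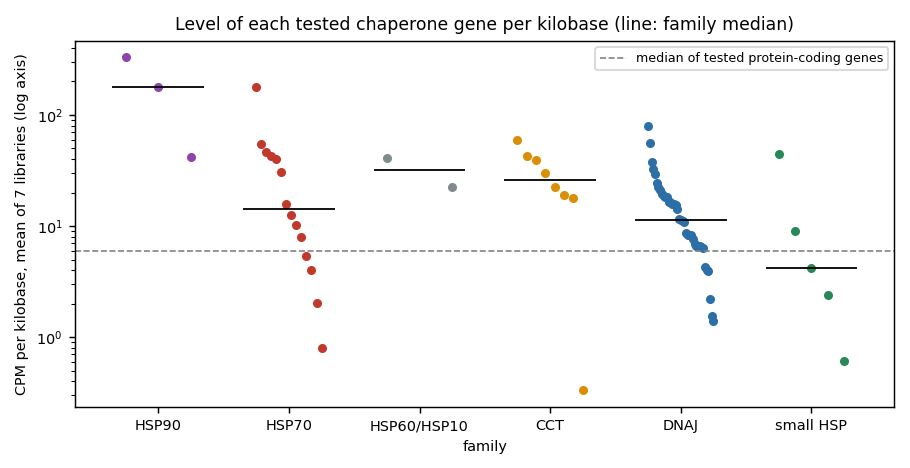
Level per kilobase (vertical log axis, CPM per kilobase averaged over 7 libraries) of each of the 71 tested chaperone genes, in columns by family, with a black line at the family median and a dashed line at the median of tested protein-coding genes. HSP90 stands highest with a median of 178 CPM per kilobase, and the small heat shock proteins lowest with 4.21.

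Hsp90aa1 (ENSMUSG00000021270, chromosome 12, 110690605 to 110702728, mm10), the inducible cytosolic HSP90, ranked 46 among the protein-coding genes by level per kilobase. Hspa8, the constitutive HSP70 that also strips clathrin from vesicles, ranked 114, and Hsp90ab1, the constitutive cytosolic HSP90, ranked 115. The next were Dnajc5, the cysteine string protein of synaptic vesicles (rank 351), the chaperonin subunit Cct5 (528) and the HSP70 partner Dnaja2 (574). Neighbours such as Hspa8 and Hsp90ab1, at 177.7 and 177.6 CPM per kilobase, did not differ beyond their spread between libraries.

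The comparison of Ang II with saline asked whether these genes differed between the groups at day 28. With edgeR 0 of the 71 tested members passed an adjusted p of 0.05, and over all 17078 tested genes 0 passed (0%). DESeq2 likewise called 0 members (0.205% of all genes tested with it) and limma-voom with quality weights called 0 (0.668%). At an unadjusted p under 0.05 edgeR found 1 member (1.41%), against 4.62% of all tested genes. It lay lower, as did 1.72% of all tested genes at that bound, while 2.9% lay higher. The groups did not overlap in 7 members (9.86%), against 5.91% of all tested genes. Of these, 3 lay above every saline library (3.18% of all genes) and 4 below (2.73%).

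The intervals around these differences were narrow. The 95% interval of the log2 fold change (Ang II over saline) lay within ±0.5 for 62 of the 71 members and within ±1 for 67. Among the 61 members with a mean of at least 10 CPM it lay within ±1 for all 61 and within ±0.5 for 58. The median log2 fold change was -0.02 over the 71 members and -0.00 over all tested genes. Of the members 41 (57.75%) lay below 0 and 30 above, against 51.12% of all tested genes below 0. The median absolute log2 fold change was 0.064 for the 61 members of at least 10 CPM and 0.082 for all 10430 genes at that level.

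**Figure D2:**
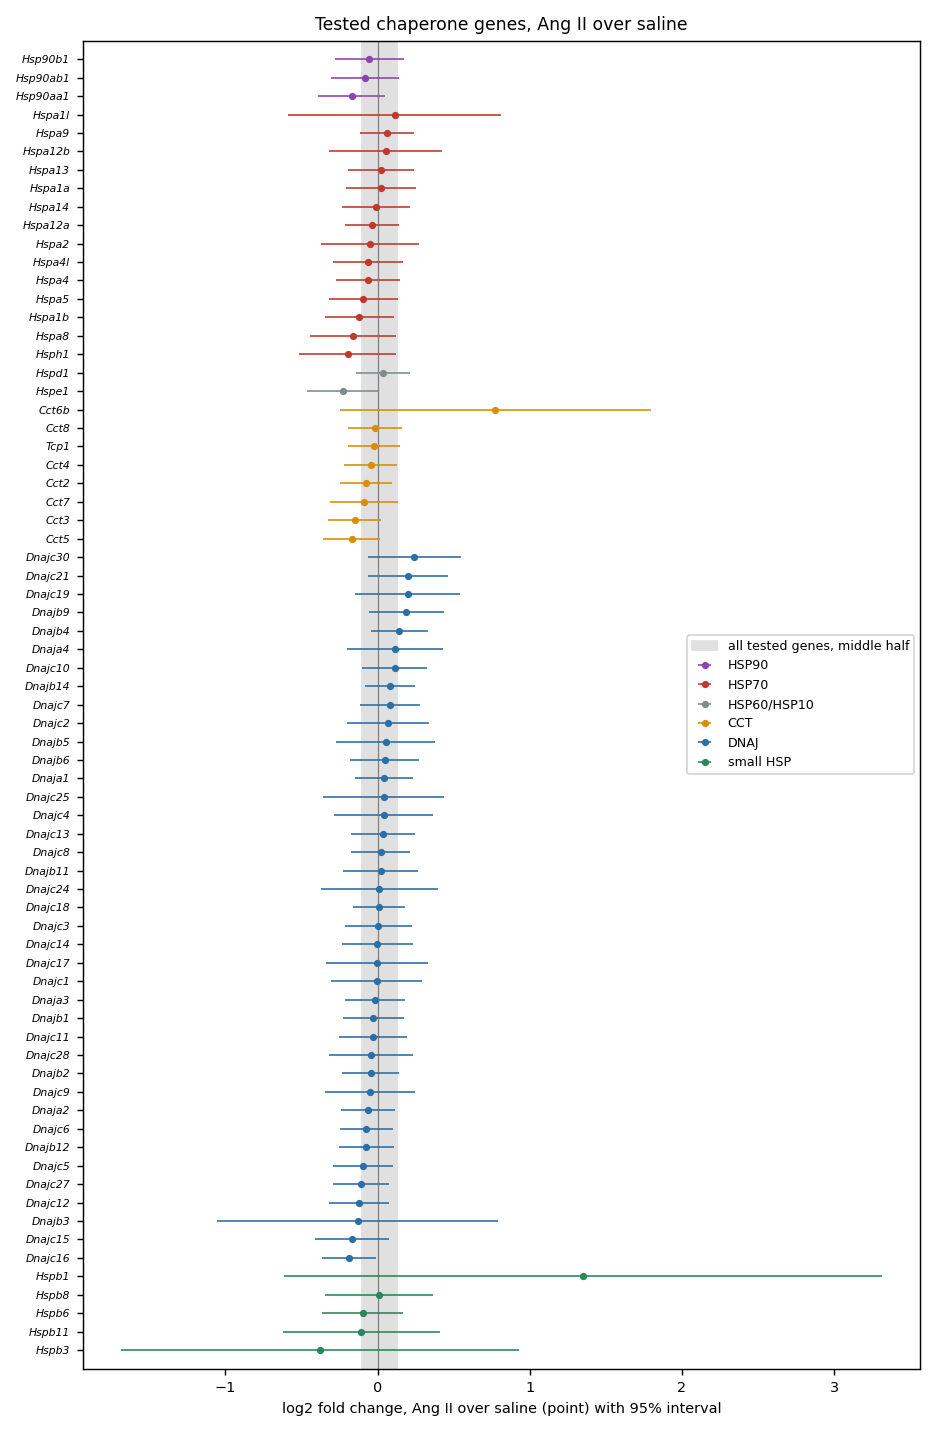
Log2 fold change of Ang II over saline (horizontal axis, point with its 95% interval from the edgeR fit) for the 71 tested chaperone genes, grouped by family and ordered within it. The grey band holds the middle 50% of all tested genes. Most points lie inside or near the band, and the widest intervals belong to genes of low count such as Hspb1, Hspb3 and Cct6b.

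The 3 HSP90 genes had log2 fold changes below 0, none past the test and each with overlapping groups. Their median log2 fold change was -0.08 (-0.14 without Ang II replicate 4 and -0.03 without Ang II replicate 1), and summed levels were 1914 ± 149 CPM in the 4 Ang II libraries and 2105 ± 101 CPM in the 3 saline libraries (mean ± SD, as in all family sums given here). Hsp90aa1 was at 1383, 1318, 1069 and 1149 CPM in Ang II replicates 1 to 4, against 1406, 1488 and 1258 CPM in the saline replicates in order. Ang II replicates 3 and 4 lay below every saline library and Ang II replicates 1 and 2 among them, for a log2 fold change of -0.17 ± 0.10 (SE, 95% interval -0.39 to 0.05, edgeR adjusted p = 0.982). Hsp90ab1 had 464, 559, 460 and 596 CPM in Ang II and 562, 513 and 575 CPM in saline, a log2 fold change of -0.08 ± 0.11 (edgeR adjusted p = 0.983). Here Ang II replicates 1 and 3 were low and replicate 4 was the highest of all 7, and the log2 fold change ranged from -0.15 without Ang II replicate 4 to -0.02 without Ang II replicate 3. Hsp90b1, the HSP90 of the ER, had 136, 180, 183 and 159 CPM in Ang II and 175, 181 and 157 CPM in saline, a log2 fold change of -0.06 ± 0.11 (edgeR adjusted p = 0.985), and turned to 0.03 without Ang II replicate 1.

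**Figure D3:**
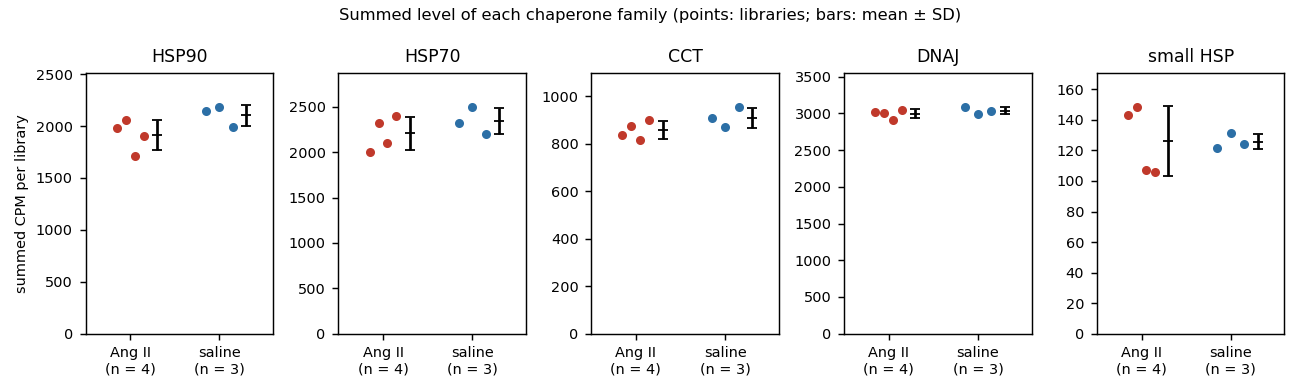
Summed CPM (vertical axes from 0) of the HSP90, HSP70, CCT, DNAJ and small heat shock protein families in each library, Ang II libraries in red and saline libraries in blue, with bars for mean ± SD. The groups overlap in every family, and the DNAJ sums run from 2909 to 3047 in Ang II and from 2991 to 3085 in saline.

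All 14 HSP70 and HSP110 genes were tested, 5 above 0 and 9 below, with a median log2 fold change of -0.04 that turned to 0.002 when libraries were scaled by size alone. The summed level was 2206 ± 182 CPM in Ang II and 2341 ± 146 CPM in saline. Hspa8 took the largest part and varied most in absolute level. It was at 574, 790, 665 and 879 CPM in Ang II, against 776, 911 and 754 CPM in saline. Ang II replicates 1 and 3 lay below every saline library, while replicates 2 and 4 lay among them, and the log2 fold change was -0.16 ± 0.13 (95% interval -0.45 to 0.12, edgeR adjusted p = 0.982). It was -0.06 without Ang II replicate 1, -0.07 without saline replicate 2 and -0.26 without Ang II replicate 4. Hsph1, the HSP110 exchange factor for HSP70, had 50.6, 56.6, 40.8 and 68.5 CPM in Ang II and 65.7, 65.8 and 54.8 CPM in saline. Its log2 fold change was -0.20 ± 0.15 (edgeR adjusted p = 0.982), with Ang II replicate 4 highest and replicate 3 lowest of the 7 libraries. The value moved to -0.08 without Ang II replicate 3 and to -0.33 without Ang II replicate 4.

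The heat-inducible HSP70 genes Hspa1a and Hspa1b did not stand out. These neighbours on chromosome 17 (34969190 to 34972156 and 34956436 to 34959238, mm10) are near-identical copies, so the split of reads between them is uncertain. Hspa1a had 37.3, 37.6, 33.4 and 41.3 CPM in Ang II and 39.0, 33.4 and 38.2 CPM in saline (log2 fold change 0.02 ± 0.11, edgeR adjusted p = 0.995). For Hspa1b the levels were 48.3, 40.6, 38.0 and 44.7 CPM in Ang II and 48.1, 43.0 and 49.0 CPM in saline (-0.12 ± 0.11, edgeR adjusted p = 0.982). The Hspa1a groups overlapped closely, while for Hspa1b Ang II replicates 2 and 3 lay below every saline library. Across 8 genes, the heat-inducible Hspa1a, Hspa1b, Hsph1, Dnajb1, Hspb1, Hsp90aa1 and Dnaja1 together with the constitutive Hspa8, 5 lay below 0 and 3 above, with a median of -0.07 and 0 genes at an unadjusted p under 0.05.

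Hspa9, the mitochondrial HSP70, was at 180 to 191 CPM in Ang II and 164 to 187 CPM in saline. Hspa12a, a distant relative abundant in brain, was at 288 to 321 CPM in Ang II and 307 to 323 CPM in saline. The HSP110 relatives varied more between libraries: Hspa4 was at 195 to 248 CPM in Ang II and 214 to 238 CPM in saline, and Hspa4l at 324 to 391 CPM in Ang II and 313 to 417 CPM in saline. Their log2 fold changes were -0.06 each. Hspa1l is left aside as a value, since 71.9% of its exonic bases lie under an antisense gene and the libraries do not mark the strand.

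Hspa5, or BiP, the HSP70 of the ER, had 141, 178, 183 and 194 CPM in Ang II and 183, 200 and 174 CPM in saline, a log2 fold change of -0.09 ± 0.11 (edgeR adjusted p = 0.982). Dnajc3, an inhibitor of the eIF2alpha kinase and an ER co-chaperone, had 51.3, 57.0, 64.0 and 55.8 CPM in Ang II and 57.3, 61.7 and 51.7 CPM in saline, a log2 fold change of 0.00 ± 0.10 (edgeR adjusted p = 0.996). Hspa5, Hsp90b1 and Dnajc3, which carry the ER stress element printed above, were all lowest among Ang II libraries in replicate 1. Among saline libraries all were highest in replicate 2 and lowest in replicate 3. The same held for Hspa8, which is not among the genes found with that element. A part of the element in this order was not tested. Dnajb9, or ERdj4, a J-domain protein that feeds misfolded proteins to degradation, showed another order. It was at 41.2, 37.9, 34.5 and 38.3 CPM in Ang II and 28.3, 36.0 and 35.9 CPM in saline (log2 fold change 0.19 ± 0.12, edgeR adjusted p = 0.982), where saline replicate 1 was low, and 0.08 without that library. A set of 7 ER members (Hspa5, Hsp90b1, Dnajb9, Dnajb11, Dnajc1, Dnajc3 and Dnajc10) summed to 594 ± 35.9 CPM in Ang II and 600 ± 22.9 CPM in saline, with a median log2 fold change of 0.004. That set does not hold the ER membrane genes Dnajc16, Dnajb14 and Dnajb12. In each of these genes the groups did not overlap, and their values are given with the DNAJ genes.

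The sum of 7 mitochondrial members was close between the groups, while single members lay on either side of 0. These 7 (Hspa9, Hspd1, Hspe1, Dnaja3, Dnajc11, Dnajc15 and Dnajc19) summed to 515 ± 12.1 CPM in Ang II and 514 ± 24.9 CPM in saline, with log2 fold changes between -0.23 (Hspe1) and 0.20 (Dnajc19). Dnajc30, also mitochondrial, is not in that sum and is given with the DNAJ genes. Hspd1, the barrel of the mitochondrial chaperonin, had 110, 105, 110 and 114 CPM in Ang II and 111, 98.8 and 111 CPM in saline (log2 fold change 0.03 ± 0.08, edgeR adjusted p = 0.985). Hspe1, its lid, had 29.1, 29.1, 31.4 and 34.6 CPM in Ang II and 33.3, 39.0 and 36.8 CPM in saline. Ang II replicates 1 to 3 lay below every saline library and replicate 4 above saline replicate 1, for a log2 fold change of -0.23 ± 0.11 (95% interval -0.46 to 0.007, edgeR adjusted p = 0.982). The difference between the log2 fold changes of the pair was not tested. Saline replicate 2 was the lowest library for Hspd1 and the highest for Hspe1. The genes share 112 exonic bases on opposite strands. The processed copies of Hspe1 in the table held at most 4 counts per library, while a copy of Hspd1, Hspd1-ps3, held 48 to 93 counts in Ang II and 93 to 233 in saline.

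CCT subunits lay below 0 in 7 of 8 tested genes (51.12% of all tested genes), with a median log2 fold change of -0.06. The summed level was 857 ± 37.0 CPM in Ang II and 910 ± 42.0 CPM in saline. Without saline replicate 3 the median was -0.0022. Cct5 had 154, 165, 141 and 167 CPM in Ang II and 169, 173 and 187 CPM in saline, a log2 fold change of -0.17 ± 0.09 (edgeR adjusted p = 0.982). Cct3 had 102, 107, 112 and 116 CPM in Ang II and 128, 118 and 118 CPM in saline, a log2 fold change of -0.15 ± 0.08 (edgeR adjusted p = 0.982). In both genes every Ang II library lay below every saline library, as in 2.73% of all tested genes. The margins were smaller than the range inside a group. The remaining subunits of the barrel, Cct2, Cct4, Cct7, Cct8 and Tcp1, had log2 fold changes between -0.09 and -0.02 with overlapping groups. The subunit gene Cct6a, which the deposited table classes as a processed transcript and which was therefore not counted in the family, was at 125, 133, 128 and 131 CPM in Ang II and 129, 148 and 145 CPM in saline (-0.13 ± 0.08, edgeR adjusted p = 0.982). Cct6b, a subunit of the testis, rested on few reads, with 15, 13, 12 and 11 counts in Ang II and 8, 4 and 9 counts in saline. Its log2 fold change of 0.77 ± 0.48 had a 95% interval of -0.25 to 1.80 (edgeR adjusted p = 0.982).

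DNAJ genes split evenly, 21 above 0 and 18 below among 39 tested, with a median log2 fold change of 0.01. Scaling by library size alone gave a median of 0.057, and limma-voom gave -0.036. The summed level was 2994 ± 60.1 CPM in Ang II and 3037 ± 47.0 CPM in saline. By class, the medians were 0.01 for DNAJA (4 tested), 0.03 for DNAJB (10) and 0.004 for DNAJC (25).

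Dnajc16 (ENSMUSG00000040697, chromosome 4, 141760189 to 141790931, mm10), a membrane-bound J-domain protein of the ER, was the member with an unadjusted p under 0.05. It was at 71.5, 70.4, 65.6 and 68.9 CPM in Ang II, against 77.0, 81.1 and 78.4 CPM in saline. Every Ang II library lay below every saline library, and the log2 fold change was -0.19 ± 0.08 (95% interval -0.37 to -0.01, edgeR adjusted p = 0.982). It did not pass over all genes. With any library left out the log2 fold change stayed between -0.21 and -0.16.

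At synapses HSP70 works with Dnajc5 and with Dnajc6, or auxilin, which brings Hspa8 to clathrin coats. Dnajc5 was at 545, 559, 472 and 556 CPM in Ang II, against 596, 586 and 525 CPM in saline, low in Ang II replicate 3 (log2 fold change -0.09 ± 0.09, edgeR adjusted p = 0.982). The value was -0.03 without Ang II replicate 3, -0.06 without saline replicate 1 and -0.14 without saline replicate 3. Dnajc6 was at 221, 217, 202 and 226 CPM in Ang II, against 233, 226 and 225 CPM in saline (-0.07 ± 0.08, edgeR adjusted p = 0.982). Both were lowest in Ang II replicate 3, the library with the lowest rod marker sum.

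Of 39 tested DNAJ genes, 2 lay above saline in every library, Dnajb14 and Dnajc21 (3.18% of all tested genes). Another 2 lay below saline in every library, Dnajc16 and Dnajb12 (2.73%). Dnajb12 was at 66.3, 64.4, 64.7 and 62.0 CPM in Ang II, against 66.6, 66.7 and 70.0 CPM in saline. Its log2 fold change was -0.08 ± 0.08 (edgeR adjusted p = 0.982). Dnajb14, an ER membrane protein, was at 133, 140, 134 and 133 CPM in Ang II, against 128, 131 and 123 CPM in saline (log2 fold change 0.08 ± 0.08, edgeR adjusted p = 0.982). Dnajc21, which acts in ribosome assembly, was at 22.6, 20.5, 23.9 and 20.2 CPM in Ang II, against 19.5, 19.6 and 17.8 CPM in saline (0.20 ± 0.12, edgeR adjusted p = 0.982). For Dnajb12, Dnajb14 and Dnajc21 the gaps between the groups were small beside the range inside them. Dnajc30, a mitochondrial protein, had the highest log2 fold change of the family at 0.24 ± 0.14 (edgeR adjusted p = 0.982), but 26.2% of its exonic bases are shared with Bud23 on the other strand. Dnajb4 had 0.14 ± 0.09.

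The cytosolic partners of HSP70 were flat. Dnaja1 and Dnaja2, which deliver clients to Hspa8, had log2 fold changes of 0.04 ± 0.09 and -0.07 ± 0.08. Dnajb1, the heat-inducible HSP40, was at 52.3, 60.1, 56.0 and 63.4 CPM in Ang II, against 57.3, 61.3 and 58.6 CPM in saline (-0.03 ± 0.09, edgeR adjusted p = 0.990). Dnajb2, a neuronal J-domain protein that binds ubiquitin, had -0.05 ± 0.09. Dnajb6, which keeps aggregation-prone proteins in solution and whose window holds the heat shock element printed above, was at 99.2, 96.2, 93.5 and 100.1 CPM in Ang II and 105, 76.1 and 102 CPM in saline, low in saline replicate 2. Dnaja4 (log2 fold change 0.11 ± 0.15) was likewise low in saline replicate 2, at 17.7 CPM, and shares 44.1% of its exonic bases with Wdr61.

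Small heat shock proteins held the widest ratios of highest to lowest library among tested members, 10.8 for Hspb1 and 6.01 for Hspb3. Hspb1 stood high in a single library, while Hspb3 rested on 2 to 11 counts per library. Hspb8 had a ratio of 1.21. Of the 8 genes 5 were tested, 2 above 0 and 3 below. Hspb1 (ENSMUSG00000004951, chromosome 5, 135887919 to 135889563, mm10), the stress-inducible HSP27 that binds actin and unfolded proteins, had 102, 485, 146 and 92 counts in Ang II and 101, 39 and 93 counts in saline. In level this was 5.78, 29.6, 9.23 and 5.55 CPM in Ang II and 6.26, 2.73 and 5.68 CPM in saline. Ang II replicate 2 was far above the rest, Ang II replicate 3 came next and saline replicate 2 was lowest. The log2 fold change was 1.35 ± 0.78 (95% interval -0.62 to 3.32, edgeR adjusted p = 0.982), 0.48 without Ang II replicate 2 and 0.21 without Ang II replicates 2 and 3.

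Lens genes were highest in the same library as Hspb1. So were Tyrp1, Dct and Pmel of the 12 pigment epithelium markers, at 15.9, 39.7 and 12.4 CPM. The other markers of that list were highest elsewhere, such as Tyr in Ang II replicate 3 (14.9 CPM). Reactive glia genes were highest in Ang II replicate 3 (164 CPM), where Hspb1 came next. The alpha-crystallins Cryaa and Cryab are small heat shock proteins by fold but carry other names. Cryaa, the main chaperone of the lens, was at 41.4, 1309, 243 and 0.603 CPM in Ang II, against 162, 24.1 and 331 CPM in saline. Cryab, which glia and muscle express as well, was at 46.2, 263, 80.9 and 42.3 CPM in Ang II, against 74.7, 47.8 and 113 CPM in saline. All 8 lens markers were highest in Ang II replicate 2. In Ang II replicate 4, where 4 of them had 0 counts and the lens list summed to 1.63 CPM, Hspb1 was at 5.55 CPM. Saline replicate 3, with 635 CPM of lens markers, had 5.68 CPM of Hspb1, and Ang II replicate 3, with 621 CPM, had 9.23. The part of lens, pigmented tissue or reactive glia RNA in the Hspb1 level was not tested.

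Hspb6, or HSP20, was by far the most abundant small heat shock protein gene at 43.1 CPM per kilobase in Ang II and 46.1 in saline. It was at 123, 104, 82.4 and 86.6 CPM in Ang II, against 100.3, 115 and 103 CPM in saline. Its log2 fold change was -0.10 ± 0.12 (edgeR adjusted p = 0.983), with Ang II replicates 3 and 4 low and replicate 1 highest. Hspb8, which works with Bag3 in selective autophagy, was even across libraries at 7.64 to 9.23 CPM in Ang II and 7.78 to 8.37 CPM in saline. Hspb11, which is also the transport protein IFT25 of cilia, was at 3.16 to 5.95 CPM in Ang II and 4.84 to 5.68 CPM in saline.

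The other small heat shock protein genes were near the floor. Counts of Hspb3 were 2 to 11 in the Ang II libraries and 6 to 11 in the saline libraries (log2 fold change -0.38 ± 0.61, edgeR adjusted p = 0.983). Hspb7, known from heart and skeletal muscle, had 6, 0, 20 and 5 counts in Ang II and 7, 0 and 0 in saline, and Hspb9, known from the testis, had 3, 1, 15 and 2 counts in Ang II and 5, 0 and 4 in saline. Both were highest in Ang II replicate 3, the library with 390 CPM of skeletal muscle markers and all 8 of those markers at their highest. Neither was tested, and a count of 0 allows up to 0.183 CPM in Ang II replicate 2 and up to 0.210 CPM in saline replicate 2. Hspb2, which shares 30.2% of its exonic bases with Cryab on the other strand, had 1, 9, 10 and 0 counts in Ang II and 6, 15 and 2 in saline, in another order than the muscle markers. Hspb3 had 4 counts in Ang II replicate 3, against 11 in Ang II replicates 2 and 4. Hspb6 was at its lowest of the 7 libraries in Ang II replicate 3, at 82.4 CPM. The part of muscle RNA in any of these genes was not tested.

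**Figure D4:**
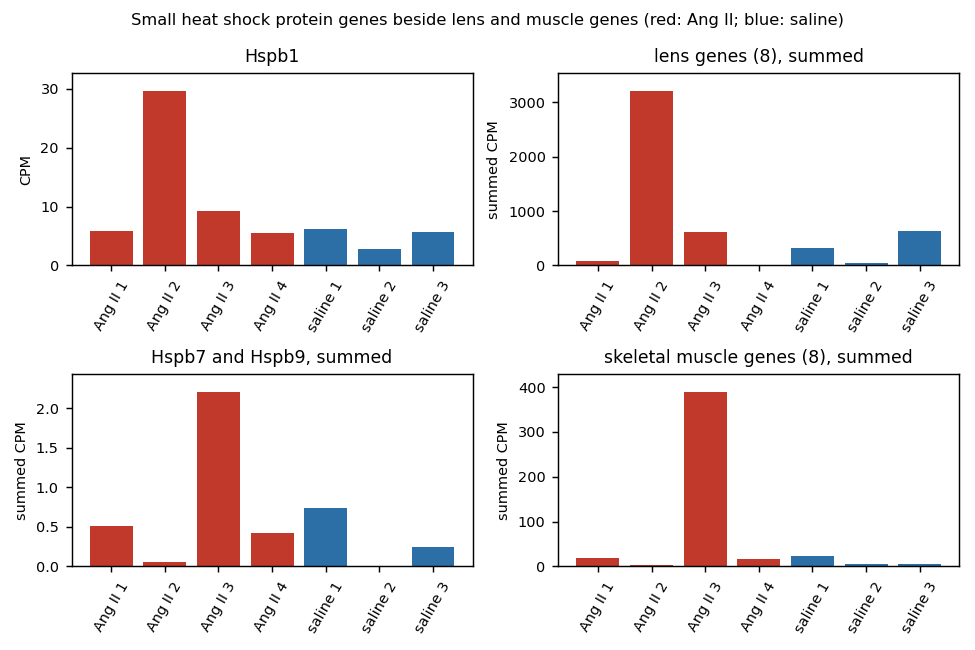
CPM per library (bars from 0, red for Ang II and blue for saline) of Hspb1, of 8 lens genes summed, of Hspb7 and Hspb9 summed, and of 8 skeletal muscle genes summed. Hspb1 and the lens genes are both highest in Ang II replicate 2, at 29.6 and 3212 CPM, and the lower panels are both highest in Ang II replicate 3.

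In all, 10 members had too few counts for a test, none above 20 counts in any library. Besides Hspb2, Hspb7 and Hspb9 they were Cct8l1, Dnajb7, Dnajb8, Dnajb13, Dnajc22, Dnajc5b and Dnajc5g. Dnajc5b and Dnajc5g are the relatives of Dnajc5 known from the testis, with 5 counts and 0 counts over all 7 libraries.

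Levels also differed between single libraries. The ratio of the highest to the lowest of all 7 libraries had a median of 1.27 for the 61 members of at least 10 CPM. It was 1.33 for all 10430 genes at that level, and under 1.5 for 55 of the 61 members. This ratio holds differences between the groups as well as differences inside them. Ang II replicate 3 was the lowest library for 21 of the 61 and saline replicate 2 for 16, while the other 5 libraries were lowest for 3 to 7 each. Ang II replicate 4 and saline replicate 3 were the highest library for 12 each and saline replicate 2 for 11. Saline replicate 2 also had fewer genes with a count (21260, against 24024 to 24846 in the other 6 libraries) and a sum of immediate early genes of 558 CPM, against 94.0 to 234 CPM elsewhere, and the part of this in the chaperone values was not tested. The widest ranges at this level were those of Hsph1, Dnajc19, Dnajb5, Dnajc9, Hspa8 and Dnaja4. The level of Dnajb5 was 27.0 CPM in saline replicate 2 and 34.3 to 43.6 CPM in the other 6 libraries. Dnajc19, which takes part in mitochondrial import, reached 21.1 CPM in Ang II replicate 3, with 12.9 to 17.0 CPM elsewhere.

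**Figure D5:**
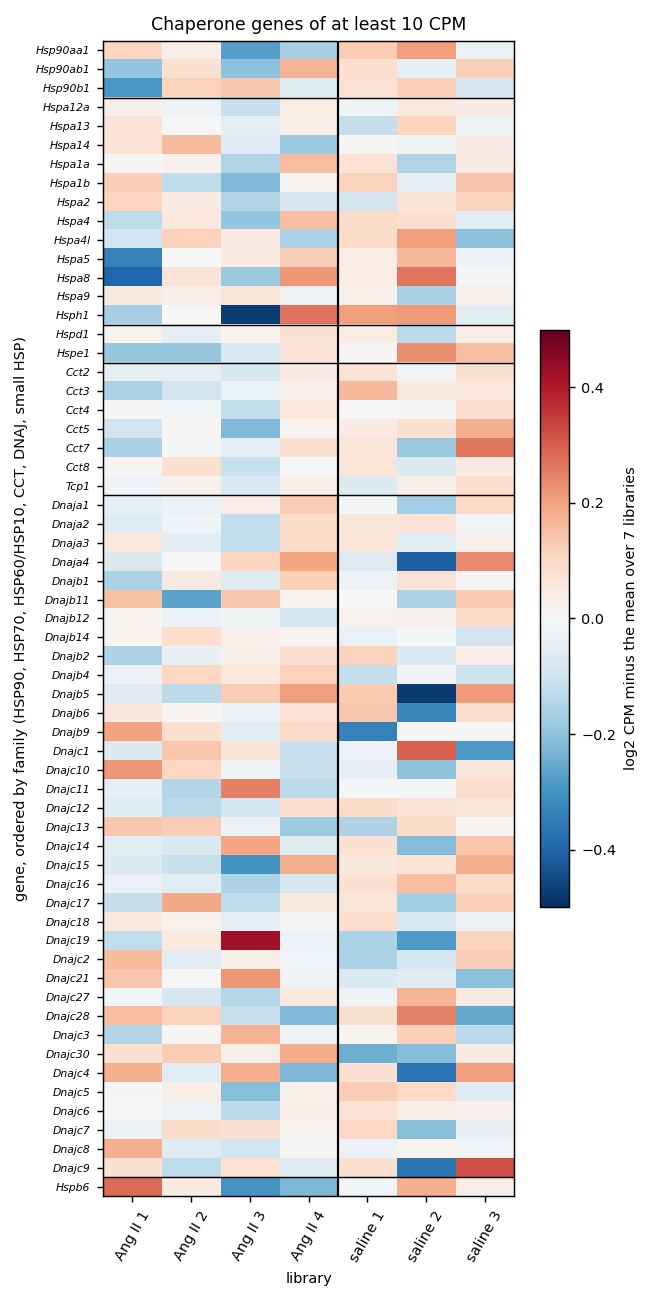
Log2 CPM of the 61 chaperone genes of at least 10 CPM minus their mean over 7 libraries (colour), with Ang II libraries left of the vertical line and saline libraries right of it, and families set apart by horizontal lines. Dark cells sit in single libraries, such as Hsph1 in Ang II replicate 3, Dnajb5 in saline replicate 2 and Hspa8 in Ang II replicate 1, and no family changes colour as a block at the line.

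Genes around the chaperones gave 0 calls as well. Among the heat shock factors, Hsf1, the factor that raises heat shock genes, was at 42.5, 45.2, 48.1 and 41.2 CPM in Ang II and 45.0, 54.3 and 40.9 CPM in saline (log2 fold change -0.08 ± 0.11, edgeR adjusted p = 0.983). Hsf4, the factor of lens development, was at 9.13, 11.4, 10.5 and 10.4 CPM in Ang II and 7.80, 7.22 and 8.56 CPM in saline. Every Ang II library lay above every saline library, as in 3.18% of all tested genes (log2 fold change of Hsf4 0.40 ± 0.16, edgeR adjusted p = 0.982). The part of lens RNA in the Hsf4 level was not tested. Hsf2 was at 86.8 CPM in saline replicate 2 and at 45.7 to 58.1 CPM in the other 6 libraries.

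Of 20 HSP90 co-chaperones, all tested, 4 lay above 0 and 16 below, with a median log2 fold change of -0.06. Over all tested genes 51.12% lay below 0. By edgeR 1 of the 20 had an unadjusted p under 0.05, as had 4.62% of all tested genes. That gene was Ptges3, or p23, which closes the HSP90 clamp, at 71.5, 73.8, 62.5 and 80.1 CPM in Ang II and 91.1, 79.4 and 85.7 CPM in saline (-0.25 ± 0.10, edgeR adjusted p = 0.982). Aipl1, the co-chaperone that photoreceptors need to fold their phosphodiesterase, was at 743 to 956 CPM in Ang II and 814 to 905 CPM in saline, highest in Ang II replicate 3.

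Exchange factors and other partners of HSP70 had a median of -0.06 over 13 tested genes. Hyou1, the exchange factor of Hspa5 in the ER, was at 76.6, 77.9, 78.8 and 96.9 CPM in Ang II and 95.4, 102.8 and 89.3 CPM in saline (-0.22 ± 0.10, edgeR adjusted p = 0.982). Bag6 lay below saline in every library, as did 2.73% of all tested genes (log2 fold change of Bag6 -0.16 ± 0.08, edgeR adjusted p = 0.982). Over 15 genes of ER folding and the unfolded protein response the median was -0.11. Of these 5 lay above 0 and 10 below, where 51.12% of all tested genes lay below. Atf6, the sensor that binds ER stress elements once cleaved, had 97.8, 106, 89.5 and 101.7 CPM in Ang II and 127, 133 and 93.7 CPM in saline (-0.26 ± 0.11, edgeR adjusted p = 0.982), and Xbp1 had -0.23 ± 0.15.

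The 12 tested CCT partners (prefoldin and phosducin-like genes) had a median of 0.01, with Vbp1 at 0.12 ± 0.08 and Pfdn5 at -0.12 ± 0.09. Vbp1 lay above saline in every library, as did 3.18% of all tested genes. Of the 8 mitochondrial protease genes with Trap1, the HSP90 of mitochondria, 7 lay below 0 (51.12% of all tested genes) at a median of -0.08. Trap1 (-0.18 ± 0.09) and Clpp (-0.19 ± 0.10) were below saline in every library, as were 2.73% of all tested genes. Both had an edgeR adjusted p of 0.982.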

How the data were processed

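Poly-A selected RNA of 7 mouse retina libraries was primed with random hexamers, per the labels' protocols, without a step that marks strand. The authors deposited unnormalized read counts, as whole numbers, and a length for each gene. HISAT2 2.0.5, featureCounts 1.5.0-p3, CASAVA and the build mm10 are named in the submitters' processing notes, which give neither role nor order. The annotation release, the strand setting and the treatment of reads matching several genes are not given in the sources used here. All columns of counts matched a sample description. Groups followed the sample titles.

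Counts of all 7 libraries were tested with edgeR 4.0.16 in R 4.3.3 (quasi-likelihood, robust, two-sided, group as sole term, filterByExpr, TMM), with Benjamini-Hochberg adjustment over 17078 genes and a threshold of 0.05. CPM were computed by edgeR on TMM-scaled library sizes, and levels per kilobase use the deposited gene length. SE was obtained by dividing the size of the log2 fold change by the root of F, and 95% intervals use its t quantile. Log2 CPM in the colour plot used a prior count of 2. Depth was 14655431 to 17563493 counts, so 1 count was worth 0.0567 to 0.0701 CPM. For a count of 0 the limit was set at 3 counts per library, which covers counting error alone. Fits were checked on simulated counts.

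Members and lists were chosen with earlier results of these data known. Genes named with full statistics were members at an unadjusted p under 0.05, the HSP90 genes, Hspd1, Hspe1, the heat-inducible set, and in each family or DNAJ class the 3 of smallest p and the highest per kilobase, and 2 genes of smallest p in each related list. Of these, 1 gene of a related list is not reported here. Other genes, and the grouping by compartment, were chosen after their values were seen. Exonic overlaps are from GENCODE M21, which held all 81 genes, 78 with the same start and end. Alternatives were 2 scalings, DESeq2 1.42.0, limma-voom (limma 3.58.1) with quality weights, 2 filters, each library left out, the replicate block, and, chosen after seeing the data, Ang II replicates 2 and 3 both left out.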

Additional observations from a re-analysis of the deposited data

Results flagged for a closer look

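In the 4 Ang II libraries 2 values stood far from the other 3, among 33 genes and families examined, where chance flags about 1 in 20 groups. Hspb1 was at 29.6 CPM in Ang II replicate 2, against 5.55 to 9.23 CPM in the other 3, in the library where lens markers summed to 3212 CPM. Dnajc5 was at 471.6 CPM in Ang II replicate 3, against 545 to 559 CPM in the other 3, in the library with the lowest sum of rod markers (50092 CPM).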

How the results depend on the processing

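No chaperone gene passed under any of the 15 alternatives, where the lowest adjusted p of a named member was 0.102 (Dnajb9, limma-voom). Over all genes, 0 were called as reported, 35 with DESeq2, 114 with limma-voom, 98 without a filter on low counts, 56 with the replicate block, 1 without Ang II replicates 2 and 3, and 0 to 117 with a single library left out (117 without saline replicate 3). The median log2 fold change of DNAJ was 0.057 with library size scaling and -0.036 with limma-voom, and ranged from -0.036 to 0.057 with a single library left out. That of CCT ranged from -0.086 to -0.0022. Of 27 named members, 19 kept their sign in every alternative that could be run for them. A value was not obtained for Hspb3 and Cct6b with the filter of 1 CPM, nor for Hspb3 without Ang II replicate 2 or 4, since they did not pass the filter there. Signs turned for Dnajb1 (0.019) and Dnajb2 (0.0019) with library size scaling, for Hspa1a (-0.033), Hspb6 (0.012) and Hspd1 (-0.023) with limma-voom, and for Hspa1a (-0.030) with the replicate block; the cause was not tested. With a single library left out, log2 fold changes ranged from -0.028 to 0.12 for Dnaja1, -0.036 to 0.29 for Dnaja4, -0.072 to 0.019 for Dnajb1, -0.094 to 0.0029 for Dnajb2, -0.11 to 0.026 for Hsp90b1, -0.047 to 0.076 for Hspa1a and -0.020 to 0.069 for Hspd1. Both groups carry numbers 1 to 3, but the deviations of same-numbered libraries correlated at -0.069, -0.021 and 0.046 across genes, so the block pairs libraries by number only. Depth limits genes of few counts: the 95% interval of Cct6b reached 1.80 and that of Hspb3 reached -1.69 on the log2 scale.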
